A study of Mus musculus with 48 samples.

Results

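Gene expression in fasted liver was compared between mice lacking Bmal1 in adipocytes (KO) and wild-type mice (WT) at collection time 0 (ZT0), with 8 of the series' 48 libraries, 4 from KO and 4 from WT mice. Members were taken by their labels alone, as every library labelled ZT0-KO or ZT0-WT. All animals were female C57BL/6J mice, group housed with 12 hours of light and 12 of darkness, then kept for 1 day in constant darkness and fasted for 24 h before collection. Poly(A) RNA of whole liver homogenate was sequenced from each mouse, so the 4 libraries of a group are 4 mice. The groups matched in age, with 1 mouse of each genotype at 58.5, 62.5, 67.25 and 69.75 weeks. The promoter that drove recombination in adipocytes is not given in the sources used here, and the whole series holds 23 KO and 25 WT libraries over 6 collection times spaced by 4 h.

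BMAL1, the product of Arntl, pairs with CLOCK to switch on genes that carry E-boxes, among them the Per, Cry and Rev-erb genes whose products feed back on the pair. Liver cells keep such a clock of their own, and they also receive daily signals from feeding, glucocorticoids, sympathetic nerves and lipids released from fat. In a fasted liver the usual programme is fatty acid oxidation with ketone production and gluconeogenesis from amino acids. Here the deletion is labelled for adipocytes and the tissue is liver, so the comparison asks how liver expression differed between mice with and without adipocyte Bmal1.

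Body weight separated the genotypes. The KO mice weighed 25, 24.5, 28.4 and 27.8 g and the WT mice 23.5, 21, 24 and 24.4 g. Every KO mouse was heavier than every WT mouse, and the means were 26.4 ± 1.96 g and 23.2 ± 1.53 g (SD, n = 4 each). The difference of 3.20 g gave p = 0.0286 in a two-sided exact permutation test without pairing, the smallest p that 4 mice against 4 can give this way. The KO mouse was the heavier in 4 of 4 pairs of equal age, but the test did not use these pairs.

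Levels are given as CPM, a gene's counts scaled to a common library total, computed on library sizes without the Alb row and scaled by the trimmed mean of M-values. The 8 libraries held between 12847558 and 12950689 counts without Alb, so depth was nearly equal across the groups. Hepatocyte markers summed to 38102 to 46069 CPM in KO and 37615 to 54660 CPM in WT, and none of the 10 markers was at 0 in any library. Arntl, a check on the label, had 36.4, 33.2, 33.1 and 26.8 CPM in the KO and 37.8, 43.7, 29.3 and 37.2 CPM in the WT livers. These ranges overlapped and the means were 32.4 ± 4.01 and 37 ± 5.93 CPM (SD, n = 4), a log2 difference (KO minus WT, as for all differences here) of -0.19 with SE 0.38. The deletion is labelled for adipocytes, so liver Arntl checks only that the liver transcript was still measured.

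Among the 8 libraries, 2 stood apart from the rest, WT replicate 3 in many genes and KO replicate 2 in pancreatic transcripts. WT replicate 3 held 321 genes at over 2 times the level of each of the other 7 ZT0 libraries, against 8 to 30 genes for any of the others. Its acute phase transcripts, which code for plasma proteins that hepatocytes make in inflammation, summed to 119443 CPM, while the other WT livers had 32998 to 39334 CPM and the KO livers 25476 to 33944 CPM. Saa1, a serum amyloid A gene, had 8792 CPM there and 25.9 to 81.1 CPM in the other 7. Neutrophil markers summed to 1794 CPM in this library and 19.8 to 79.0 CPM in the other 7, though KO ZT20 replicate 1 reached 1802 CPM. Kupffer cell and macrophage markers summed to 1835 CPM in WT replicate 3 against 197 to 1013 CPM in the other 7. Genes of adrenal steroid synthesis were also found in it. Cyp11b1, the last enzyme of corticosterone synthesis, had 29.1 CPM and was at 0 in all other 47 libraries of the series, and Hsd3b1, an enzyme of the steps before it, had 33.1 CPM against at most 0.209 CPM elsewhere. The adrenal cortex list, written after these values had been seen, had all 12 genes above 0 in this library and 5 to 8 of them at 0 in each of the other 7.

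KO replicate 2 carried transcripts of digestive enzymes from the exocrine pancreas. The 22 marker genes found in the table summed to 567 CPM there, to 7.04, 12.6 and 11.2 CPM in the other KO livers and to 5.67 to 6.14 CPM in the WT livers. Low levels of most markers were also present in KO replicates 3 and 4. There 5 and 4 of the 22 were at 0, against 17 in KO replicate 1 and 15 to 19 in the WT livers. Ctrb1, chymotrypsinogen, had 63.5 CPM, Pnlip, pancreatic lipase, 53.6 CPM and Prss2, a trypsinogen, 39.8 CPM, and each had at most 1.14 CPM in every other library of the series. Values without 1 or both of these livers are given beside the results below that they moved most. In whole-tissue RNA, fewer cells of a type and less RNA per cell cannot be told apart.

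**Figure D1:**
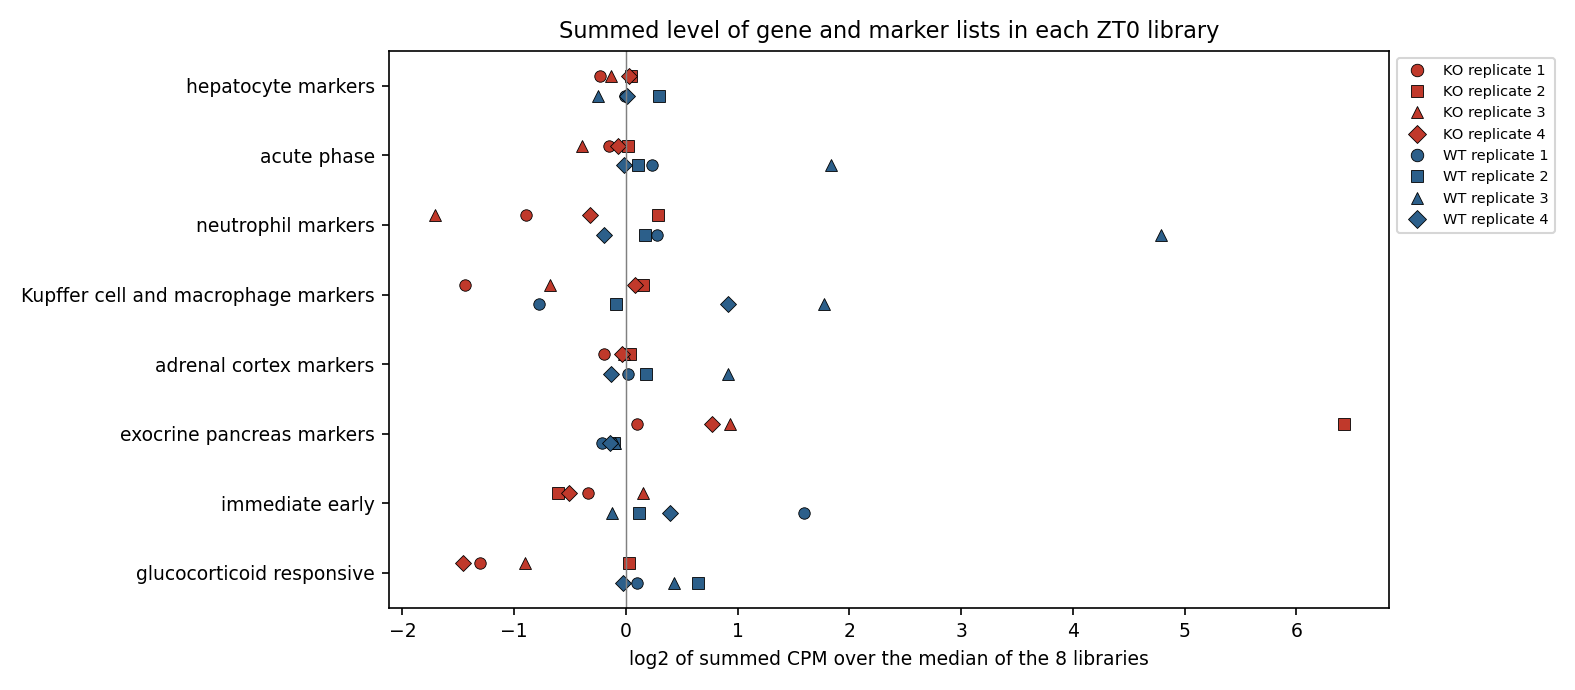
Summed CPM of 8 gene or marker lists in each of the 8 ZT0 libraries, as log2 of the ratio to the median of the 8 libraries (horizontal axis). Each point is 1 liver, red for KO and blue for WT, with the shape giving the replicate. WT replicate 3 lies far to the right for acute phase, neutrophil and macrophage transcripts, and KO replicate 2 for exocrine pancreas transcripts at 567 CPM.

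Across the transcriptome, 2 of 13646 genes tested passed an adjusted p of 0.05 in edgeR's quasi-likelihood test with Benjamini-Hochberg adjustment, which is 0.0147% of the genes. Cela2a, a pancreatic elastase, was the single gene higher in KO (0.00733%), and Star, which carries cholesterol into mitochondria for steroid synthesis, the single gene lower (0.00733%). At an unadjusted p under 0.05 there were 202 genes higher (1.48%) and 552 lower (4.05%). The 4 KO livers did not overlap the 4 WT livers in 499 genes (3.66%), with KO above WT in 257 (1.88%) and below in 242 (1.77%). The median log2 difference over all genes tested was -0.0055. Without WT replicate 3 no gene passed in edgeR, and without both libraries again none did. None passed either when the replicate number, which matches ZT0 mice in age, was taken as a block. DESeq2 called 0 higher and 11 lower, among them Star, Orm2, Atf3, Akr1b7, Fos, Slc3a1, Cyp21a1, Cpne8, Aim1l and Orm1, and gave no adjusted p for Cela2a.

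Cela2a (mm9 chr4:141370877-141382075) had 0.524, 69.0, 0.762 and 0.936 CPM in the KO livers and 0.0787, 0.326, 0.315 and 0.288 CPM in the WT livers. The groups did not overlap, but KO replicate 2, the liver with by far the most pancreatic transcripts, was far above the rest of its group. KO replicates 3 and 4, at 0.762 and 0.936 CPM, also held low levels of most other pancreatic markers. The log2 difference of 6.09 (SE 1.08, edgeR adjusted p = 0.0203) dropped to 1.52 without KO replicate 2 (edgeR adjusted p = 0.794), and edgeR's adjusted p was 0.0632 without WT replicate 3. Its relative Cela1 had 59.2 CPM in KO replicate 2 and 6.16 to 7.01 CPM in the other KO livers, beside 5.05 to 5.67 CPM in WT. The Cela1 difference of 1.86 was 0.26 without KO replicate 2. At the other 5 collection times the mean Cela2a difference was 0.26 (edgeR adjusted p = 0.822).

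Star (mm9 chr8:26918946-26925782) had 1.12, 1.75, 1.60 and 1.33 CPM in KO and 2.52, 3.18, 26.5 and 2.88 CPM in WT. Every KO liver lay below every WT liver, and WT replicate 3, the liver with the adrenal transcripts, was far above the other WT livers. The log2 difference was -2.59 (SE 0.49, edgeR adjusted p = 0.0332). Without WT replicate 3 it was -0.97 and without both libraries -1.07, with edgeR adjusted p of 1.00 and 0.966. The call was also lost on leaving out any single KO liver, with edgeR adjusted p from 0.0729 to 0.246, while the log2 difference stayed near its main value. At the other collection times Star differed by -0.27 (edgeR adjusted p = 0.499).

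**Figure D2:**
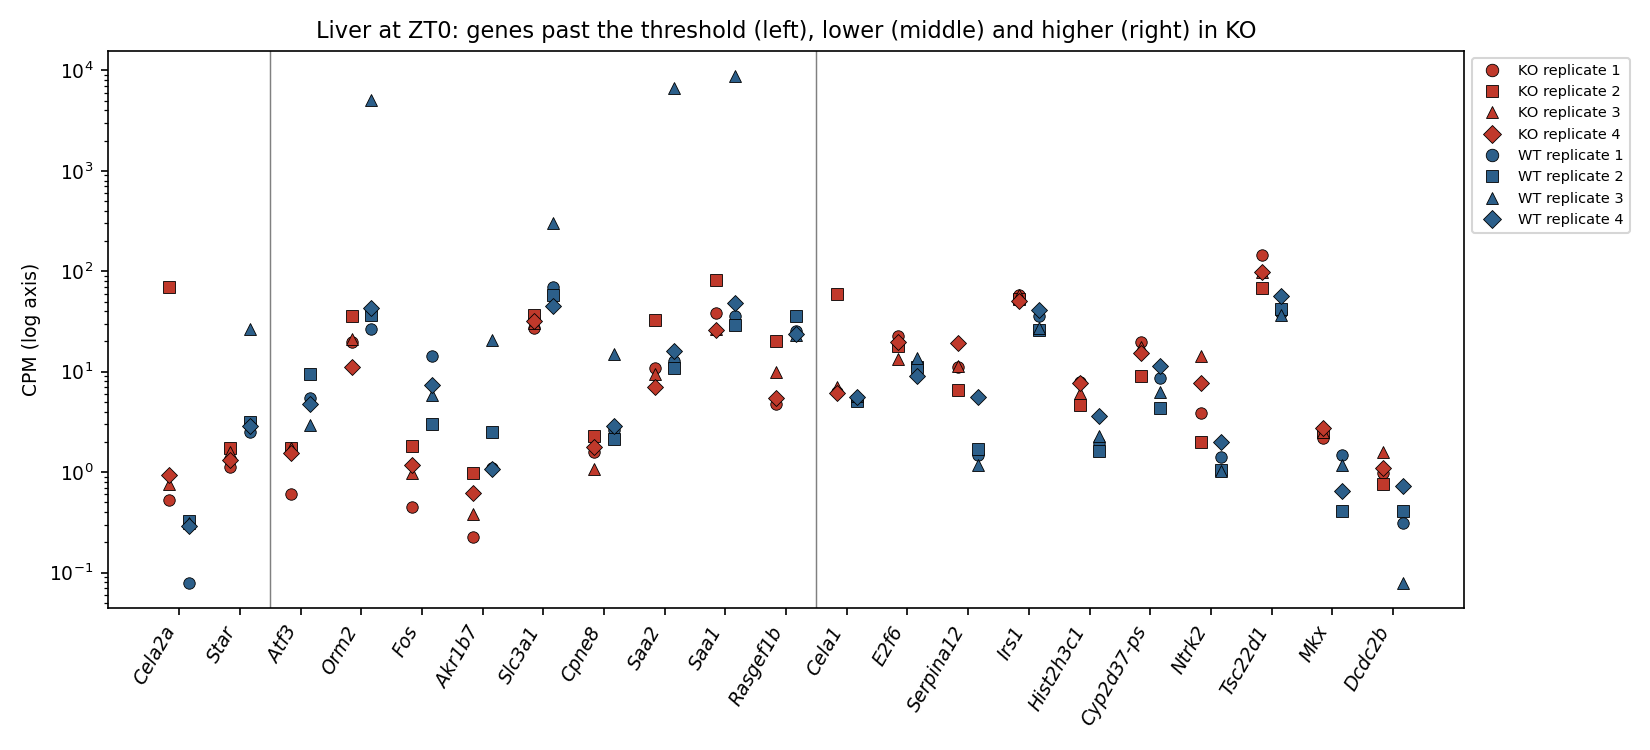
CPM on a log axis for the 2 genes past the threshold (left), genes lower in KO (middle) and higher in KO (right) from those with the smallest p among the rest. Red points are the 4 KO and blue points the 4 WT livers, with shapes for replicates. WT replicate 3 sits far above the other livers for Orm2, Saa1 and Saa2, at 5097 to 8792 CPM, whereas for Atf3, Fos and Rasgef1b the 4 WT livers lie together above the 4 KO livers.

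Of the 10 lower genes with the next smallest p, Orm2, Saa2, Saa1, Akr1b7, Slc3a1 and Cpne8 had their highest level by far in WT replicate 3, and the Saa and Orm genes have close copies between which reads can be shared. Orm2, an orosomucoid of the acute phase, had 5097 CPM there and 26.5 to 43.2 CPM in the other WT livers, against 11.2 to 35.9 CPM in KO. Its log2 difference of -5.88 (edgeR adjusted p = 0.0509) was -0.68 without that liver. Slc3a1, a cystine and amino acid transporter subunit, had 27 to 36.4 CPM in KO and 70.3, 58.1, 302 and 45.2 CPM in WT. It went from -1.92 to -0.88 without that liver, the groups still not overlapping. Akr1b7, an aldose reductase relative abundant in the adrenal cortex, went from -3.49 to -1.48, and Cpne8, a copine, from -1.75 to -0.59.

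Atf3, Fos and Rasgef1b had differences as large without WT replicate 3 as with it. Rasgef1b, an exchange factor for Rap GTPases, had 4.79, 20.2, 9.91 and 5.46 CPM in KO against 25.7, 35.8, 23.3 and 24.0 CPM in WT. KO replicate 2 was the highest of its group. The difference was -1.43 (edgeR adjusted p = 0.237) with all livers and -2.01 without KO replicate 2, where it passed the threshold (edgeR adjusted p = 0.0222). Without both libraries it was -2.07 and did not pass (edgeR adjusted p = 0.0565), nor did it without WT replicate 3 alone (edgeR adjusted p = 0.360).

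Immediate early genes code for transcription factors and regulators that cells switch on within minutes of a stimulus, with no need of new protein. Of 16 tested, 15 had a log2 difference below 0 at ZT0 and none passed the adjusted threshold. At an unadjusted p under 0.05, 8 were lower and 0 higher, beside 4.05% and 1.48% of all genes tested. The groups did not overlap in 5, all with KO below WT. Over all genes tested, KO lay below WT without overlap in 1.77% and above in 1.88%. These shares also stand beside the counts of the lists that follow. The immediate early list's median was -0.88, beside -0.0055 for all genes. It was -0.95 without WT replicate 3 and -0.90 without both libraries. Those fits kept WT replicate 1, the liver with the highest summed level for this list. Earlier results of these data had already named Fos, Jun and Junb, so the direction of this list is not independent evidence.

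Atf3, a stress-induced factor of the ATF family, had 0.599, 1.75, 1.75 and 1.56 CPM in KO and 5.43, 9.53, 2.91 and 4.75 CPM in WT. The lowest WT liver was above the highest KO liver. The log2 difference was -1.99 (SE 0.40, edgeR adjusted p = 0.0509), -2.21 without WT replicate 3 and -2.32 without both libraries. Fos, which forms AP-1 with Jun proteins, had 0.449, 1.83, 0.991 and 1.17 CPM in KO and 14.2, 3.01, 5.90 and 7.41 CPM in WT, again with no overlap. Its difference was -2.78 (SE 0.60, edgeR adjusted p = 0.0786).

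The nuclear receptor gene Nr4a1, picked out after its values had been seen, had 1.05, 4.71, 3.1 and 1.64 CPM in KO and 57.6, 8.31, 5.20 and 24.8 CPM in WT, a difference of -3.18 (edgeR adjusted p = 0.272). WT livers spread over a wide range here, led by WT replicate 1, but stayed above KO. Jun had 8.11 to 20.4 CPM in KO and 121, 30.4, 14.5 and 24.8 CPM in WT, and Junb 8.50 to 18.9 CPM in KO and 58.9, 13.2, 18.1 and 23.8 CPM in WT. Both overlapped, with differences of -1.91 and -1.14 and unadjusted p of 0.00138 and 0.0161. WT replicate 1 was the highest liver for Fos, Nr4a1, Jun and Junb, and the list summed to 670 CPM there against 203 to 292 CPM in the other WT and 145 to 247 CPM in the KO livers. That sum in WT replicate 1 was the highest of the 48 libraries, and the sums of the other WT livers overlapped those of KO.

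Dusp1 codes for a phosphatase that switches off MAP kinases and is induced by both stimuli and glucocorticoids. It had 27.7, 19.2, 28.6 and 17.6 CPM in KO and 102, 59.9, 41.8 and 73.6 CPM in WT. The lowest WT liver was above the highest KO liver, and the means were 23.3 ± 5.66 and 69.3 ± 25.3 CPM (SD, n = 4). The log2 difference at ZT0 was -1.57 (SE 0.43, edgeR adjusted p = 0.297), so this gene alone did not pass at this time. At the other 5 times, in 40 different mice, it was -1.66 (edgeR adjusted p = 1.76e-06), and the ZT0 difference departed from that by 0.09 (SE 0.46).

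The starts of these genes are shown because 10 of the 15 immediate early genes found in the RefSeq promoter table (build GRCm38.p6, which is not the mm9 build of the counts) held the cAMP response element half-site TGACG or its reverse CGTCA, the letters bound by CREB and ATF factors, within the 250 bases before their start. Some genes have several starts and so several windows. Counted by window, 12 of the 19 windows of these genes held it, beside 17.8% of all 32851 windows of that length. Of the 25 windows of the 15 glucocorticoid responsive genes found there, 8 did. The E-box CACGTG, the letters bound by BMAL1 and CLOCK and the same on both strands, was in 3 of the 19 and 6 of the 25 windows and in 6.02% of all windows. The windows of Fos (chr12:85473640-85473889, + strand), Nr4a1 (chr15:101266596-101266845, + strand), Atf3 (chr1:191183334-191183583, - strand) and Dusp1 (chr17:26508473-26508722, - strand) are printed 5′ to 3′ along the gene, with half-sites on either strand in capitals.
Fos: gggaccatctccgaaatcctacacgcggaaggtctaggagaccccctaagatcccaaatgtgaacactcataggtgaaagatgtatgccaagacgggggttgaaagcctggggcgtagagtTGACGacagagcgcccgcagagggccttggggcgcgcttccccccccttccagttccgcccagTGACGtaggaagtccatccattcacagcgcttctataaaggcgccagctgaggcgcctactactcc
Nr4a1: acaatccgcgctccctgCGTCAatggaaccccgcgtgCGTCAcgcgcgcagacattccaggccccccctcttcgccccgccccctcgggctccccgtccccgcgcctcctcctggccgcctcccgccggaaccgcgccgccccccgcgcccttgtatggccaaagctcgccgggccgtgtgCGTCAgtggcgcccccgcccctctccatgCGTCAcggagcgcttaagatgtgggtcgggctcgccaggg
Atf3: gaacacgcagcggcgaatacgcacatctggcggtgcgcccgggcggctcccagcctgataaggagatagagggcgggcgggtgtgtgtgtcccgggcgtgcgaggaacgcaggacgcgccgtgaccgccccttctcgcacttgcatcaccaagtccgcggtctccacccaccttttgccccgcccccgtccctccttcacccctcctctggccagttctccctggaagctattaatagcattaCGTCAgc
Dusp1: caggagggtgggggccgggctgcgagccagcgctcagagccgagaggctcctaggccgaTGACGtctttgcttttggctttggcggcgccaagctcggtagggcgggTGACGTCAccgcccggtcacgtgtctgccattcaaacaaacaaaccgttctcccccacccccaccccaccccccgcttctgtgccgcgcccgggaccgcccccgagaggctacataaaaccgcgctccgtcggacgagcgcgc
Fos has 2 half-sites, starting 129 and 66 bases before the start, and Nr4a1 has 4, of which the nearest begins 40 bases before it. In Atf3 the single half-site begins 7 bases before the start. Dusp1 has 3, and 2 of them overlap to give TGACGTCA, the full palindrome. These are matches of letters only and binding was not measured. The background of all windows was not matched to these genes in base content or liver expression. Dusp1 comes from the glucocorticoid responsive list, not from the immediate early list.

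Glucocorticoid responsive genes are those that the hormone-bound receptor switches on. Of 16 tested, 15 were below 0 and none passed the adjusted threshold. At an unadjusted p under 0.05, 6 were lower and 0 higher, and 4 of the 16 did not overlap. Among the 6 is Lcn2, with a difference of -3.46 that was -0.81 without WT replicate 3. Some genes are counted in several lists. Lcn2 is also an acute phase and neutrophil gene here, Per1 a core clock gene, and Tat a gluconeogenesis and hepatocyte gene. The glucocorticoid responsive list also holds Dusp1, which earlier results of these data had named, so the direction of the list is not independent evidence either. The list's median was -1.01, as it was without WT replicate 3, and -1.39 without both libraries, where 8 genes were lower at an unadjusted p under 0.05. Sgk1, a kinase that regulates ion channels, had 15.1, 41.6, 21.0 and 15.7 CPM in KO and 60, 42.8, 47.1 and 46.8 CPM in WT. KO replicate 2 came close to the WT livers while the other KO livers were well below them. The difference was -1.07 (edgeR adjusted p = 0.324), and without KO replicate 2 it was -1.51 and passed (edgeR adjusted p = 0.0475). Without both libraries it was -1.52 and did not pass (edgeR adjusted p = 0.0790), and without WT replicate 3 alone edgeR's adjusted p was 0.751. Per1, a clock gene with a glucocorticoid response as well, had 4.57, 23.8, 23.8 and 2.65 CPM in KO and 70.9, 65.1, 26.2 and 19 CPM in WT, with a difference of -1.72 (unadjusted p = 0.00826, edgeR adjusted p = 0.596).

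Tat, a liver enzyme of tyrosine breakdown and a classical glucocorticoid target, had 723, 1531, 915 and 796 CPM in KO and 1961, 2709, 1171 and 1685 CPM in WT, a difference of -0.92 (unadjusted p = 0.0584). The list's summed level was 1709 to 4798 CPM in KO, where KO replicate 2 was the highest, and 4602 to 7368 CPM in WT.

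**Figure D3:**
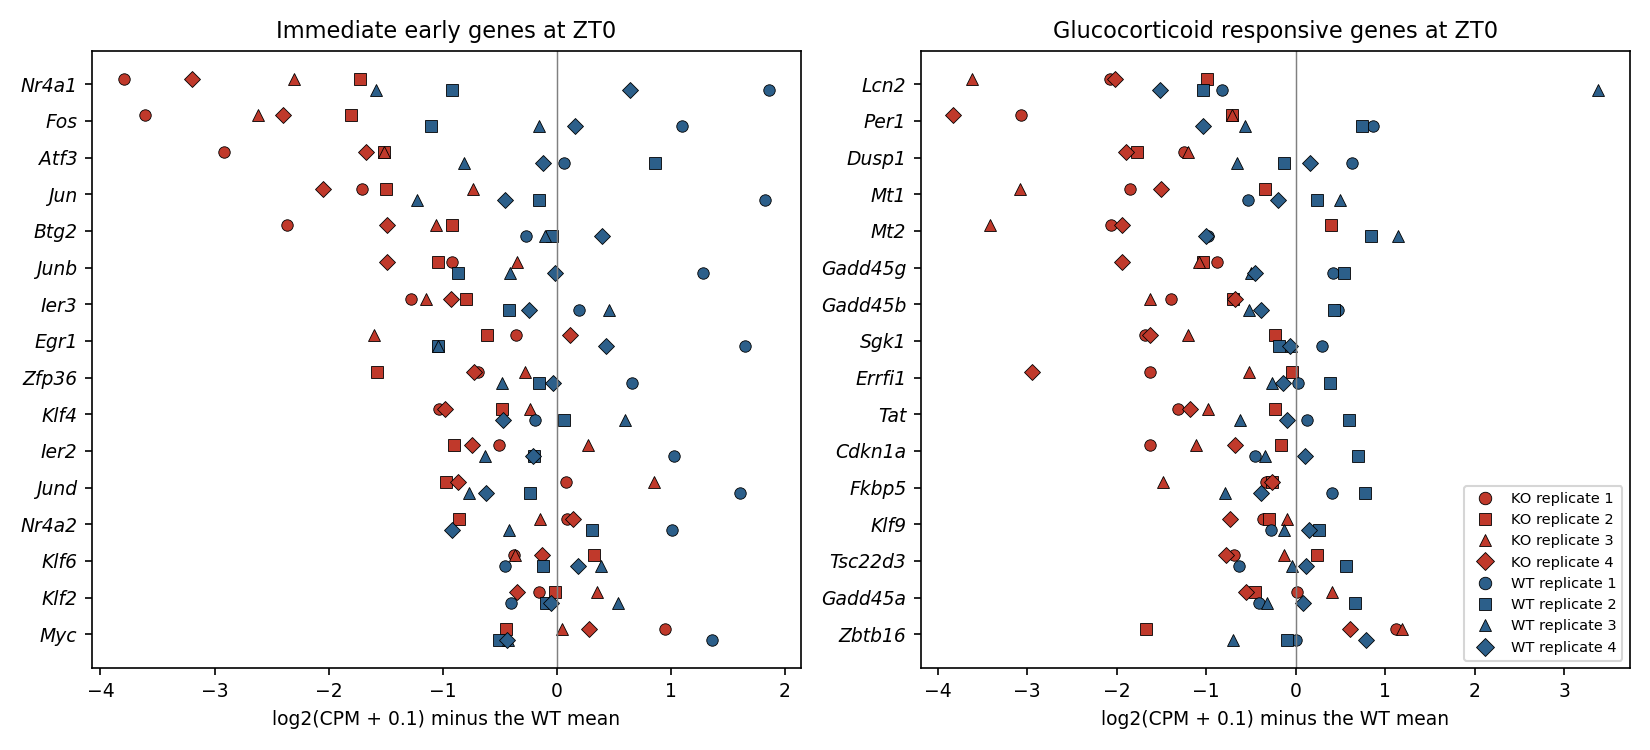
Each tested gene of the immediate early list (left) and of the glucocorticoid responsive list (right) in the 8 ZT0 livers, as log2(CPM + 0.1) minus the mean of the 4 WT livers. Red points are KO and blue points WT, with shapes for replicates, and genes are ordered by their log2 difference. In 15 of 16 genes in each panel the log2 difference is below 0, and KO replicate 2 lies among the WT livers for several genes on the right.

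Genes of the fasting programme showed smaller differences. Among 18 genes of gluconeogenesis and amino acid catabolism, 15 were below 0, 2 had an unadjusted p under 0.05 (both lower) and the median was -0.37. The count was 5 lower without WT replicate 3, 4 lower and 1 higher without KO replicate 2, and 6 lower without both libraries, where the median was -0.65. Sds, serine dehydratase, had 68.5, 125, 175 and 87.4 CPM in KO and 259, 472, 190 and 135 CPM in WT, with a difference of -1.21 (unadjusted p = 0.0147). Slc25a25, a mitochondrial carrier of adenine nucleotides, differed by -0.81. Both overlapped between groups.

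Of 28 PPARalpha targets and genes of fatty acid oxidation and ketogenesis, 24 were above 0, with a median of 0.30 that was 0.18 without both libraries, and 2 had an unadjusted p under 0.05, both higher, or 1 without either or both libraries. Bdh1, which makes the ketone 3-hydroxybutyrate, had 586, 391, 482 and 460 CPM in KO and 336, 210, 181 and 324 CPM in WT, with no overlap. Its difference was 0.87 (SE 0.28, edgeR adjusted p = 0.509). Acadm, medium-chain acyl-CoA dehydrogenase, had 987 to 1142 CPM in KO and 922, 928, 505 and 862 CPM in WT, a difference of 0.43 that also had no overlap. WT replicate 3 was the lowest liver for this gene, and without it the difference was 0.26.

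Lipid uptake and lipid droplet genes numbered 17, of which 14 were above 0 and 3 were higher at an unadjusted p under 0.05, the same 3 that did not overlap. Fitm1, which helps form lipid droplets, had 28.8, 18.9, 41.9 and 23.5 CPM in KO and 14.4, 7.82, 6.69 and 10.1 CPM in WT, a difference of 1.53 (edgeR adjusted p = 0.494). Vldlr, the VLDL receptor, had 19.4 to 28.5 CPM in KO and 7.01 to 15 CPM in WT, a difference of 1.06. Cd36, a fatty acid transporter, had 398, 488, 342 and 494 CPM in KO and 304, 172, 229 and 284 CPM in WT, a difference of 0.80 (edgeR adjusted p = 0.774). At the other 5 times Cd36 differed by 0.73 and passed (edgeR adjusted p = 0.0136).

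On the higher side no gene outside Cela2a passed, and the 10 with the smallest p after it are given as values. E2f6, a repressor of the E2F family, had 22.5, 17.9, 13.5 and 19.7 CPM in KO and 11.2, 11.2, 13.5 and 8.99 CPM in WT, a difference of 0.72 (edgeR adjusted p = 0.268). Of these 10 genes it is the one that passed at the other 5 times, at 0.38 (edgeR adjusted p = 0.0149). Serpina12, which codes for the serpin vaspin, had 11.2, 6.54, 11.4 and 19.1 CPM in KO and 1.5, 1.71, 1.18 and 5.54 CPM in WT, a difference of 2.27 with no overlap. Irs1, the adaptor of the insulin receptor, had 58.5, 52.6, 58.6 and 50.8 CPM in KO and 36.2, 25.9, 27.3 and 41.6 CPM in WT, a difference of 0.75. The Irs1 groups did not overlap, with means of 55.2 ± 4.01 CPM in KO and 32.8 ± 7.45 CPM in WT (SD, n = 4, edgeR adjusted p = 0.297).

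Tsc22d1 had 144, 68.4, 97.5 and 98.6 CPM in KO and 38.3, 42.4, 36.8 and 56.6 CPM in WT, a difference of 1.23 with no overlap. The histone gene Hist2h3c1 differed by 1.47 and the neurotrophin receptor gene Ntrk2 by 2.32. Mkx, a homeobox gene, differed by 1.40, Dcdc2b by 1.5 and the pseudogene Cyp2d37-ps by 1.00. Their edgeR adjusted p ran from 0.216 for Cela1 to 0.460 for Dcdc2b. Of the 10, 7 did not overlap between groups, and 9 of the 10 had the same sign at the other times. For the 10 lower genes these counts were 6 and 5. Over all genes tested, 3.66% did not overlap and 56.6% had the same sign. Both sets were picked by their p at ZT0, which favours genes whose groups do not overlap.

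The core clock in the liver showed no gene past the threshold among 24 tested. Unadjusted p was under 0.05 for 0 higher and 2 lower genes, Per1 and Gm129, and the list's median was -0.11. Gm129, the gene of the repressor CHRONO, had 0.375, 1.06, 0.229 and 0.702 CPM in KO and 1.65, 5.38, 0.709 and 0.720 CPM in WT, a difference of -1.81 (edgeR adjusted p = 0.812), and it was lower at the other times as well (-1.17, edgeR adjusted p = 0.0451). Bhlhe40, an E-box repressor, had 29.7 to 53.9 CPM in KO and 54.3 to 112 CPM in WT, and with Bhlhe41 it was 1 of 2 clock genes whose groups did not overlap. Npas2, a partner of BMAL1, had 18.3, 11.6, 22.1 and 17 CPM in KO and 9.29, 13.8, 7.87 and 11 CPM in WT. Its difference was 0.72 at ZT0, and the mean over the other times was 1.86 (edgeR adjusted p = 0.000641). The gap between the ZT0 difference and that mean had an unadjusted p of 0.0468. The mean is not a steady excess in KO, because single times ranged from -1.28 (ZT4, the only one below 0) to 4.07 (ZT8). The ZT0 difference lay within this range.

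Nr1d1, which codes for the repressor REV-ERBalpha, ranged widely between mice of 1 group, from 1.60 to 18.8 CPM in KO and 2.12 to 9.52 CPM in WT. The difference was 1.24 with SE 0.84. At the other 5 times the difference was below 0, at -1.07 (edgeR adjusted p = 0.179), and the gap between them had an unadjusted p of 0.0174 (edgeR adjusted p = 1.00). Clock differed by 0.23, Cry1 by -0.41, Per2 by 0.22 and Dbp by 0.21, and for each the groups overlapped. Without both libraries Dbp was at -0.23.

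**Figure D4:**
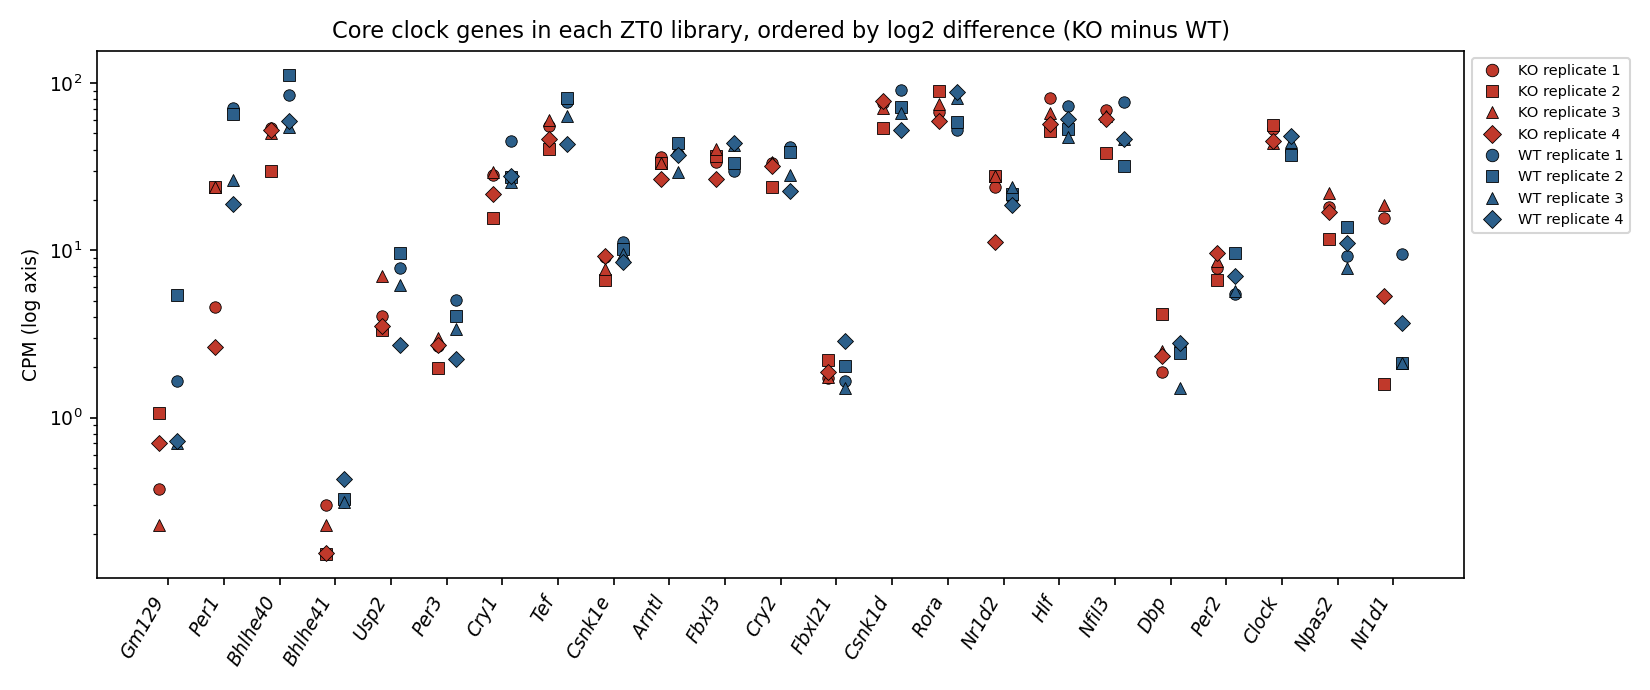
CPM on a log axis of core clock genes in the 8 ZT0 livers, in order of their log2 difference from most negative (left) to most positive (right). Red points are KO and blue points WT livers, with shapes for replicates. Most groups overlap, and Per1, Gm129 and Nr1d1 show the widest spread between livers of 1 genotype.

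Inflammatory and immune cell lists had their highest levels in WT replicate 3. All 22 acute phase genes were below 0 with a median of -0.90, and 12 had an unadjusted p under 0.05 on the lower side. Without WT replicate 3 the median was -0.28 and none had an unadjusted p under 0.05. All 12 neutrophil markers tested were below 0 with a median of -3.50, which was -0.18 without that liver. All 15 Kupffer cell and macrophage markers were below 0 with a median of -1.08, and 12 had an unadjusted p under 0.05. All 15 stayed below 0 without both libraries, with a median of -0.78 and 2 genes at that p. They also did so without WT replicate 3 alone, with a median of -0.54 and 1 gene at that p. Cd5l, a macrophage-secreted protein, had 23.7 to 82.6 CPM in KO and 46.6, 69.3, 313 and 165 CPM in WT. The T, NK and B lymphocyte markers had a median of -0.21 over 15 genes, 0.20 without that liver and -0.07 without both libraries.

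Interferon responsive genes had 18 of 24 above 0 and 2 higher at an unadjusted p under 0.05, with a median of 0.25, and 22 of 24 above 0 and 1 higher without WT replicate 3. Gbp10, a guanylate-binding protein gene, had 3.65 to 9.21 CPM in KO and 0.896 to 3.74 CPM in WT, a difference of 1.51 (edgeR adjusted p = 0.686).

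Of 16 cell cycle genes 15 were below 0 and 8 had an unadjusted p under 0.05, all lower, with a median of -0.90. The count of 8 became 3 with a median of -0.56 without WT replicate 3, 5 without KO replicate 2, and 2 with a median of -0.47 without both libraries. Mcm6, part of the replicative helicase, had 1.72, 2.81, 3.05 and 3.12 CPM in KO and 4.41, 4.72, 4.80 and 4.25 CPM in WT, a difference of -0.76 with no overlap (edgeR adjusted p = 0.336). Rrm2, a subunit of ribonucleotide reductase, had 2.21 to 3.52 CPM in KO and 5.12, 12.3, 4.64 and 4.25 CPM in WT. It differed by -1.16 at ZT0 and passed at the other times (-0.86, edgeR adjusted p = 0.0112). Mki67 had 6.61 CPM in WT replicate 3 and 0.157 to 2.23 CPM in the other 7 livers.

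Heat shock and temperature responsive genes were above 0 in 11 of 13, with 4 higher and 1 lower at an unadjusted p under 0.05 and a median of 0.48. Hsph1, a co-chaperone of HSP70, had 57.6, 73.8, 60.5 and 114 CPM in KO and 27.9, 37.1, 53.1 and 35.3 CPM in WT, a difference of 0.99 with no overlap (edgeR adjusted p = 0.488). Rbm3, an RNA-binding protein induced by cooling, was the lower one, at 38.9 to 43.1 CPM in KO and 56.0 to 71.5 CPM in WT. Major urinary protein genes were above 0 in 14 of 15, with a median of 1.22 and of 1.86 without WT replicate 3, but counts can be shared between their near-identical copies, so single genes are uncertain. Mup2 had 0.760 to 1.5 CPM in KO and 0 to 0.315 CPM in WT, and the list summed to 2162 to 4563 CPM in KO and 1996 to 3060 CPM in WT.

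In the other metabolic and stress lists no gene but Star passed the threshold. Cholesterol synthesis and uptake had 20 of 22 above 0 but none at an unadjusted p under 0.05 and a median of 0.24, or 0.42 without both libraries. Bile acid synthesis and transport had a median of 0.06, or 0.21 without both, with 1 gene higher, Cyp7b1, at an unadjusted p under 0.05. Fatty acid and triglyceride synthesis had a median of 0.11 and 1 lower, Scd2, which was no longer among the genes at an unadjusted p under 0.05 without WT replicate 3. Glycolysis and glycogen had a median of -0.03 and none. Insulin and growth hormone responsive genes had a median of 0.0008 and 1 higher, Irs1. Xenobiotic metabolism had a median of -0.14, with 3 higher and 3 lower, and a median of -0.04 without KO replicate 2. The unfolded protein and integrated stress response list had a median of 0.07 and 1 higher, Pdia6, a folding enzyme of the endoplasmic reticulum. Without WT replicate 3 the median was 0.30, with 4 higher and 1 lower at an unadjusted p under 0.05, and the Pdia6 difference went from 0.45 to 0.78. Without both libraries the median was 0.35, with 3 higher and 1 lower. Cholesterol transport and steroid synthesis had a median of -0.11, with Star past the threshold.

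Markers of other cells showed no gene past the threshold outside the pancreatic and adrenal lists. Medians were 0.08 for stellate cells and fibroblasts, -0.19 for sinusoidal endothelium, 0.41 for cholangiocytes, -0.49 for erythroid cells and 0.23 for gallbladder and gut epithelium. Leaving out WT replicate 3 gave 0.0016 for stellate cells and fibroblasts, -0.09 for sinusoidal endothelium, 0.17 for cholangiocytes, 0.12 for erythroid cells and 0.43 for gallbladder and gut epithelium. Without both libraries the stellate median was -0.15 and the erythroid one 0.10. For hepatocyte markers the median was -0.26, for adipocyte markers 0.32 over 4 genes (0.15 without KO replicate 2) and for the adrenal cortex list -2.59 over 5 genes, or -0.17 without WT replicate 3. The exocrine pancreas list had 2 genes tested, with a median of 3.98, or 0.89 without KO replicate 2. The part of these cells in any difference was not tested.

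The same contrast at the other 5 times, in 40 other mice, gave 37 genes higher (0.271%) and 71 lower (0.52%), 108 in all (0.791%). Of those 108, 100 had the same sign at ZT0. The sign was shared by 56.6% of all genes tested, by 67.6% of the 754 with an unadjusted p under 0.05 at ZT0 and by 78.6% of the 499 whose groups did not overlap. There were 21 genes that did not overlap at ZT0 and passed at the other times, 14 lower and 7 higher, and all 21 had the same sign in both. Beside Dusp1, Fos, Rrm2 and Cd36 they include Timp3, Rec8 and Aim1l, picked out after their values had been seen.

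Timp3, an inhibitor of matrix metalloproteinases, had 9.36, 18.1, 9.22 and 17.6 CPM in KO and 19.7, 32.6, 25.5 and 40.4 CPM in WT. Its log2 difference was -1.12 at ZT0 (edgeR adjusted p = 0.281) and -1.02 at the other times (edgeR adjusted p = 1.18e-05). Rec8, a meiotic cohesin subunit, had 0.390 to 1.37 CPM in KO and 1.58 to 3.38 CPM in WT, with differences of -1.55 and -1.87. Aim1l had 0.300, 0.532, 0.610 and 0.702 CPM in KO and 3.70, 3.83, 1.97 and 3.09 CPM in WT, with differences of -2.53 and -2.01.

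**Figure D5:**
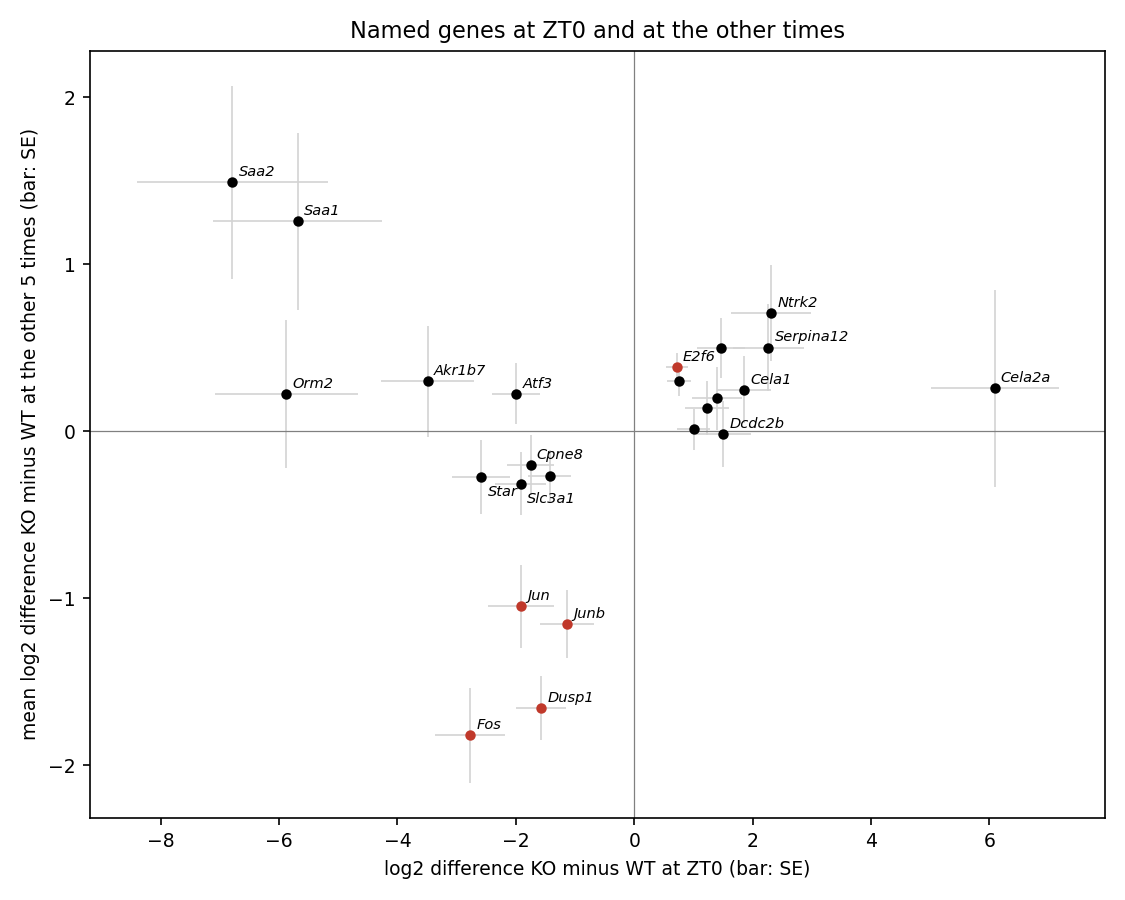
Log2 difference (KO minus WT) of the named genes at ZT0 (horizontal) against the mean of the other 5 times (vertical), with bars of 1 SE. Red points passed the adjusted threshold at the other times. Fos, Dusp1, Jun and Junb lie below 0 on both axes, while Saa1 and Saa2 lie below 0 at ZT0 and above 0 at the other times, and Atf3 is at 0.22 on the vertical axis.

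The difference at ZT0 was then set against that at the other times in the same fit. No gene passed (0%), 533 had an unadjusted p under 0.05, and DESeq2 called 3 lower. The smallest p belonged to Atf3, at -1.99 at ZT0 and 0.22 at the other times (edgeR adjusted p = 0.0902 for the difference of -2.22). Cela2a and Orm2 had the same adjusted p, with differences of 5.83 and -6.10, and both rest on 1 liver as described above. For Fos the differences were -2.78 and -1.82 (edgeR adjusted p = 1.00 for the gap between them).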

How the data were processed

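The authors deposited 1 table of whole-number read counts per gene for 48 libraries of stranded poly(A) RNA, per the labels' protocols. CASAVA, STAR 2.4.1d and the mm9 build are named in the submitters' processing notes, and how genes were counted is not given in the sources used here. The deposited counts sum to nearly the same total in every library (12847558 to 12950689 without Alb in the 8 ZT0 libraries). Alb, marked as highly expressed in the file, holds multiples of a fixed step and was left out of library sizes and tests. Counts were read with R 4.3.3. All 48 libraries were fitted with 12 group means in edgeR 4.0.16 (filterByExpr by group, TMM, quasi-likelihood test, Benjamini-Hochberg adjustment over 13646 of 22353 genes, threshold 0.05), with contrasts for ZT0, for the mean of the other 5 times and for their difference. The procedure was tested on simulated data. Differences are KO minus WT, and "not overlapping" means that all 4 CPM values of a group lie on 1 side of the other 4.

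Named genes are Arntl, those past the threshold, the 10 higher and 10 lower with the next smallest p whose mean log2 CPM is 0 or more, the core clock list, up to 4 genes of each list past the threshold or otherwise the 2 with the smallest p, and Dusp1, Fos, Jun, Junb and Star. The members, the 19 gene groups and 11 cell type lists were chosen with earlier results of these data known, and the adrenal cortex list after seeing these values. Alternatives were RLE factors, library size alone, DESeq2 1.42.0, other count filters, ZT0 libraries alone, a replicate block, body weight as a covariate, Alb in library sizes, robust dispersion and leaving out each ZT0 library or 2 together. Labels give ZT0 mice of 1 number the same age, but the main fit did not pair them. Their deviations from the group means correlated at 0.47, 0.14, -0.12 and 0.08. These values cannot exclude a pairing, because numbers 2 and 3 include KO replicate 2 and WT replicate 3, the livers that stood apart. Pairs of libraries within a group differed by more than sampling noise, so none was counted as a duplicate. Promoter letters come from RefSeq (GRCm38.p6). Some genes that the rule names are not reported here.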

Additional observations from a re-analysis of the deposited data

Results flagged for a closer look

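Each of the values below lay farther from the other 3 livers of its group than Dixon's 95% limit for 4 samples allows, on a log2 scale. Chance sets off this rule in about 1 of 20 groups, and 24 of 256 groups examined did so, 10 of them with WT replicate 3 as the highest liver and 4 with KO replicate 2 as the highest.

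In WT replicate 3 the acute phase transcripts summed to 119443 CPM and neutrophil markers to 1794 CPM. Saa1 had 8792 CPM, Saa2 6620 CPM, Orm2 5097 CPM and Lcn2, an iron-binding protein of neutrophils and inflamed liver, 1292 CPM. Star had 26.5 CPM, Cpne8 15.1 CPM, Scd2, a fatty acid desaturase, 12.1 CPM and Pdia6, a folding enzyme of the endoplasmic reticulum, 259 CPM in that liver. It was the lowest WT liver for Acadm at 505 CPM and for Ldha, lactate dehydrogenase, at 1441 CPM.

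In KO replicate 2 exocrine pancreas markers summed to 567 CPM, with Cela2a at 69.0 CPM and Cela1 at 59.2 CPM. The same liver was the highest KO liver for the cytochrome Cyp3a13 at 439 CPM and the lowest for the clock genes Bhlhe40 at 29.7 CPM and Cry2 at 24.0 CPM.

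The remaining ones involve other livers. WT replicate 1 was lowest for Cela2a at 0.0787 CPM and highest for Cry1 at 45.2 CPM. KO replicate 1 was lowest for Atf3 at 0.599 CPM. KO replicate 4 was lowest for Nr1d2 at 11.2 CPM and highest for the summed heat shock and temperature responsive genes at 4892 CPM. WT replicate 4 was highest for Bhlhe41 at 0.432 CPM.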

How the results depend on the processing

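The direction of both called genes was kept under every alternative that gave them an adjusted p, but their calls and the counts depended on the setting. At ZT0 the counts of genes higher and lower, 1 and 1 with TMM in edgeR, were 1 and 4 with RLE factors, 1 and 2 with library size alone, 0 and 11 in DESeq2, 4 and 6 with no filter on low counts, 1 and 4 with a stricter filter (mean CPM of at least 1), 1 and 4 with Alb in library sizes, 1 and 0 with body weight as a covariate, 0 and 0 with the 8 ZT0 libraries alone and 0 and 0 without WT replicate 3 and KO replicate 2 together. The last and the robust dispersion estimates (1 and 1) were chosen after seeing the data. With the replicate number as a replicate block the counts were 0 and 0, in the fit of 48 libraries and in that of 8. At ZT0 the labels match mice of 1 number in age. Only replicate 1 livers of both genotypes correlated best with their own number, which does not show that the other mice were unpaired. Leaving out 1 library gave 0 to 1 higher and 0 to 8 lower, with 0 and 0 without WT replicate 3, 0 and 3 without KO replicate 2, and 6, 6 and 8 lower without WT replicates 1, 2 and 4. For ZT0 against the other times DESeq2 called 3 lower, and leaving out 1 library gave 0 to 1 higher and 0 to 6 lower. At the other 5 times DESeq2 called 87 higher and 140 lower, and no filter 20 higher and 50 lower, beside 37 and 71. The weight difference ran from 2.46 to 3.84 g without 1 mouse, on the same side, and its exact permutation p was above 0.05 in 6 of 8 cases, each with fewer mice. The sign of 13 named genes, none past the threshold, turned in some setting. On leaving out 1 library the log2 differences ran as follows: Saa2 from -7.51 to 0.16, Saa1 from -6.19 to 0.19, Hlf from -0.019 to 0.25, Hbb-b1 from -1.11 to 0.12, Fabp4 from -0.0016 to 0.39, Muc1 from -0.22 to 0.50, Dbp from -0.073 to 0.35, Fbxl21 from -0.22 to 0.13, Cry2 from -0.24 to 0.037, Nr1d2 from -0.0083 to 0.33, Rora from -0.071 to 0.18 and Csnk1d from -0.14 to 0.13. Without WT replicate 3 and KO replicate 2 together Hbb-b1 was at 0.10, Dbp at -0.23 and Csnk1d at 0.067, with body weight as a covariate Nfil3 was at -0.10 and Fbxl21 at 0.034, and with library size alone Csnk1d was at 0.014. The cause of these turns was not tested. With about 13 counts behind 1 CPM, genes below that level rest on few counts and their differences are the least precise.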
